A study of Mus musculus with 4 samples.

Results

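The ATF4 branch of the integrated stress response was followed through 10 of its genes in naive mouse embryonic stem cells that differed in their level of Lncenc1, a long noncoding RNA of these cells. The genes were chosen by symbol as transcription factors (Atf4, Cebpg, Cebpb, Atf5, Atf3 and Ddit3) and effectors (Chac1, Nupr1, Trib3 and Sesn2) of the pathway. All 10 were found among the 19840 genes of the authors' deposited table, and all 10 had passed its filter on low means.

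Cells of the E14TG2a and R1 lines were kept naive in 2i/LIF, in which inhibitors of MEK and GSK3 act beside the cytokine LIF. They received a pLKO.1 lentivirus with a hairpin against Lncenc1 (shLincenc1) or a control hairpin (shCtrl), were kept in puromycin for 2 days, and gave 2 libraries per group of total RNA without ribosomal RNA. Which line and which of the 2 hairpins designed per gene a library came from is not labelled, nor are separate cultures, so p-values measure a spread that may be technical. No label or header states the numerator of the deposited fold change, so the groups are named by their Lncenc1 level, Lncenc1-low (libraries L1 and L2) and Lncenc1-high (H1 and H2). If the hairpin lowered its target, Lncenc1-low is the shLincenc1 group. Lncenc1 had 2126 and 2121 normalized reads in L1 and L2, against 6400 and 7250 in H1 and H2, a difference that fixes the names and cannot check the labels. Every fold change below is Lncenc1-high over Lncenc1-low, so a positive value means a lower level in Lncenc1-low.

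The deposited means hold whole reads of each library, which could be worked out for all 10 genes, and a normalized read is a read divided by the size factor of its library. Recovered reads came to 10859814 in L1, 10326298 in L2, 25754400 in H1 and 10670721 in H2. The libraries of Lncenc1-low lay further apart than those of Lncenc1-high, with a median absolute log2 ratio over tested genes of 0.35 against 0.20. The 12 markers of naive pluripotent cells were all measured and summed to 72200 and 68648 normalized reads in L1 and L2, against 85942 and 81661 in H1 and H2. Fibroblast markers summed to 67.8 and 133 against 89.3 and 84.1 over the 5 of 8 in the table, which does not list Dcn, Lum or Postn. Primitive endoderm markers summed to 88.7 and 76.6 against 64.7 and 69.0 over 7 of 7, with Foxa2 under 3 reads in every library. Trophoblast markers summed to 980 and 1378 against 812 and 741 over 6 of 7, without Elf5. Of the 23 markers tested, DESeq2 in the authors' deposited table and limma voom each called 0, against 1.53% and 0.0428% of all tested genes. At an unadjusted p under 0.05 they had 6 and 5 of the 23. The shares of all tested genes were 3.54% lower and 5.28% higher in Lncenc1-low for DESeq2, and 10.1% for limma voom. The 6 were Nanog, Tbx3, Dppa5a and Cdx2, lower in Lncenc1-low, and Dppa3 and Tfap2c, higher there. An absence of calls in so few genes does not show that the markers were unchanged. In bulk RNA a lower share of expressing cells and a lower level per cell cannot be told apart.

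In the integrated stress response, kinases that sense amino acid shortage, unfolded protein, haem deficiency or viral RNA phosphorylate the translation factor eIF2 alpha. Most translation falls, while the Atf4 mRNA, whose leader holds upstream reading frames, is translated more, so that its protein can change without its mRNA. ATF4 protein binds DNA with C/EBP partners at composite elements and switches on genes of amino acid supply, redox balance and, under lasting stress, cell death.

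Of the 10 genes, 2 were called, with a DESeq2 adjusted p under 0.05 in the authors' deposited table, Chac1 and Nupr1, both lower in Lncenc1-low. That direction was called for 0.505% of all tested genes and either direction for 1.53%. At an unadjusted p under 0.05 the genes Trib3, Cebpg and Atf4 joined them, which makes 5 of 10, all lower in Lncenc1-low, against 3.54% of tested genes in that direction and 5.28% in the other. Both low libraries lay below both high libraries in 6 of 10, against 20.6% of tested genes, and above them in 0 of 10, against 20.7%. The median log2 fold change in the authors' deposited table was 0.53 over the 10 genes and -0.0054 over all tested genes. The 10 genes were chosen with earlier results of these data known, so these comparisons are descriptions and no independent test.

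The promoters of 4 of the genes are shown because they hold the letters of the C/EBP-ATF response element, the composite site bound by ATF4 with a C/EBP partner, and because 3 of them are the effectors with the lowest levels in Lncenc1-low relative to Lncenc1-high. They are RefSeq windows on build GRCm38.p6, from 250 bases before to 50 after the annotated start, given on the strand of the gene. Capitals mark the match to TGATGNAAN, which in all 4 lies on the opposite strand, so that the capitals are its reverse complement.
Chac1 (chr2:119350992-119351291, plus strand): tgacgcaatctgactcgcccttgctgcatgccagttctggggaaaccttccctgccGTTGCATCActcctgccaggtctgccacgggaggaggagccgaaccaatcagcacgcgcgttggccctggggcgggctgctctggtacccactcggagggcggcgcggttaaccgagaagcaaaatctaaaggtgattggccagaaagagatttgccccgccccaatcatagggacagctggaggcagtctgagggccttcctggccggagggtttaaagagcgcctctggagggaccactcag
Nupr1 (chr7:126625421-126625720, minus strand): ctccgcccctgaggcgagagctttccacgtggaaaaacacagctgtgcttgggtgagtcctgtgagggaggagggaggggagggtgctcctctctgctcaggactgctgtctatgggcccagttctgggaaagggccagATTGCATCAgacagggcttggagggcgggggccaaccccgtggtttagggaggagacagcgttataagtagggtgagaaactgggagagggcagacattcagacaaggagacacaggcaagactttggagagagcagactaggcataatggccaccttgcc
Trib3 (chr2:152344011-152344310, minus strand): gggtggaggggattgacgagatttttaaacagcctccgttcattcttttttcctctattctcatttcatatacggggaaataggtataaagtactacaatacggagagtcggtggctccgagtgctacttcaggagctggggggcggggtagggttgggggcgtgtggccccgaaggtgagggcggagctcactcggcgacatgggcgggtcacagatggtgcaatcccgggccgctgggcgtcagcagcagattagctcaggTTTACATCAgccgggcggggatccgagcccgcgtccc
Atf3 (chr1:191183284-191183583, minus strand): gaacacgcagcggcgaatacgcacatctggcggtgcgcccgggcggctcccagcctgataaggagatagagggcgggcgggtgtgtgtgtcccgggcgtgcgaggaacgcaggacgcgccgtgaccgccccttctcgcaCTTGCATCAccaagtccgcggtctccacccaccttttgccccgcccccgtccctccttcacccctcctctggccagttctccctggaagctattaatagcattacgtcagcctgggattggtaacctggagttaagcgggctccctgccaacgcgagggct

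Read on the strand of the motif, the matches were TGATGCAAC in Chac1, TGATGCAAT in Nupr1, TGATGTAAA in Trib3 and TGATGCAAG in Atf3. The match lay at bases -194 to -186 in Chac1, at -111 to -103 in both Nupr1 and Atf3, and past the start at 14 to 22 in Trib3. All 10 genes had a window, and Atf5 had 2. On either strand the motif was found in 4 of these 11 windows and in 3.95% of all 32851 windows of that length. The windows of Atf4, Cebpg, Cebpb, Atf5, Ddit3 and Sesn2 did not hold these letters. The cAMP response element, TGACGTCA, was found in 0 of the 11 windows and in 1.79% of all, and the ER stress response element, searched by its full consensus, in 0 of 11 and in 0.119% of all. A match is a string of letters and was not tested as a binding site.

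**Figure D1:**
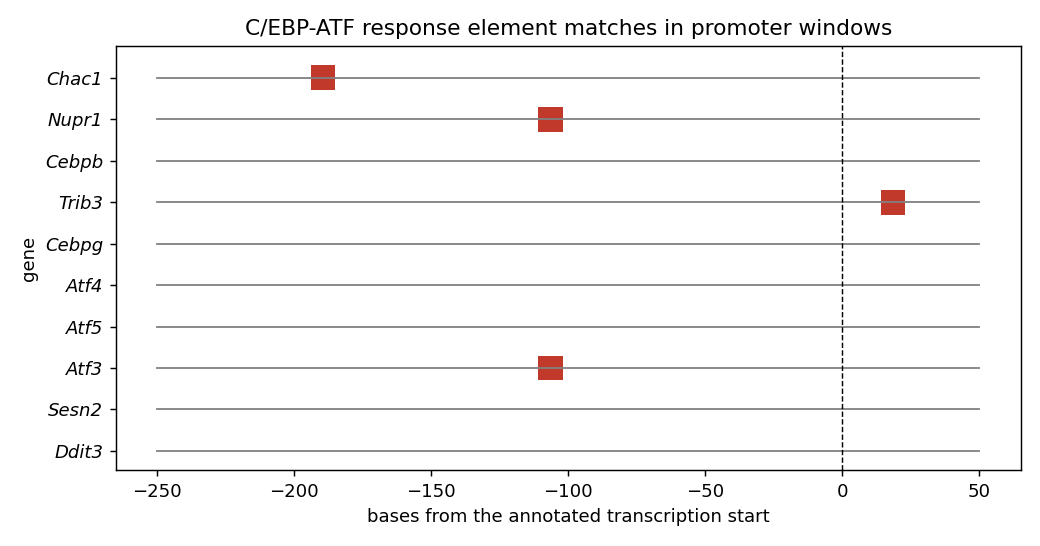
Position of each match to the C/EBP-ATF response element (red boxes) in the promoter windows of the 10 genes, on an axis of bases from the annotated start (dashed line); rows are ordered by deposited fold change and Atf5 stands for both of its windows. Matches sit upstream of the start in Chac1, Nupr1 and Atf3 and past it in Trib3.

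Chac1 codes for an enzyme that breaks down glutathione and is a known target of ATF4 and CHOP. It had 29.6 and 22.2 normalized reads in L1 and L2, against 156 and 189 in H1 and H2. Both low libraries lay far below both high ones, and the spread within either group was small beside the gap. The means were 25.9 ± 5.18 in Lncenc1-low and 173 ± 23.6 in Lncenc1-high (SD, n = 2 each). The authors' deposited table gives Chac1 (ENSMUSG00000027313.3) a log2 fold change of 2.73 ± 0.50 (SE), a fold of 6.65, with a DESeq2 adjusted p of 3.04e-05 and a 95% Wald interval from 1.75 to 3.71 on the log2 scale. The counts behind the low values were 24 and 18 reads, against 304 and 151, and the call held in a negative binomial refit of the recovered reads without any 1 library, at log2 fold changes from 2.54 without L2 to 2.95 without L1. The normalized levels of L1 and L2 had exact Poisson 95% intervals of 18.9 to 44.0 and 13.2 to 35.2, which cover counting error only.

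Nupr1, a small stress-induced nuclear protein, had 161 and 59.3 normalized reads in L1 and L2, against 449 and 526 in H1 and H2. The groups did not overlap, yet L1 held 2.72 times the level of L2. Of the 2242 tested genes with a mean within a factor of 1.5 of that of Nupr1, 3.21% differed more between the low libraries. In the authors' deposited table Nupr1 (ENSMUSG00000030717.8) has a log2 fold change of 2.14 ± 0.40 (SE) and a DESeq2 adjusted p of 5.61e-05. Its size depended on the low library kept, with 3.04 without L1 (refit adjusted p = 5.40e-06) and 1.59 without L2 (refit adjusted p = 0.16, no longer called).

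Trib3, a pseudokinase that is induced by ATF4 and restrains its activity, had 195.9 and 236 normalized reads in L1 and L2, against 498 and 355 in H1 and H2. The groups did not overlap, and the wider gap was between the high libraries. The low mean was 50.6% of the high mean. The log2 fold change was 0.99 ± 0.32 (SE) in the authors' deposited table (ENSMUSG00000032715.9), with a DESeq2 adjusted p of 0.0877 that missed the threshold and a 95% Wald interval from 0.37 to 1.60. Without any 1 library it ranged from 0.72 to 1.21 in the refit and was not called.

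Sesn2, a leucine sensor that holds back mTORC1, had 2039 and 3223 normalized reads in L1 and L2, against 2510 and 2598 in H1 and H2. The high libraries were nearly equal and lay between the low ones. Its log2 fold change in the authors' deposited table (ENSMUSG00000028893.8) was -0.0432 ± 0.24 (SE) with a 95% Wald interval from -0.51 to 0.42, a fold between 0.704 and 1.34. Its sign depended on the low library kept, at -0.34 without L1 and 0.32 without L2 in the refit.

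**Figure D2:**
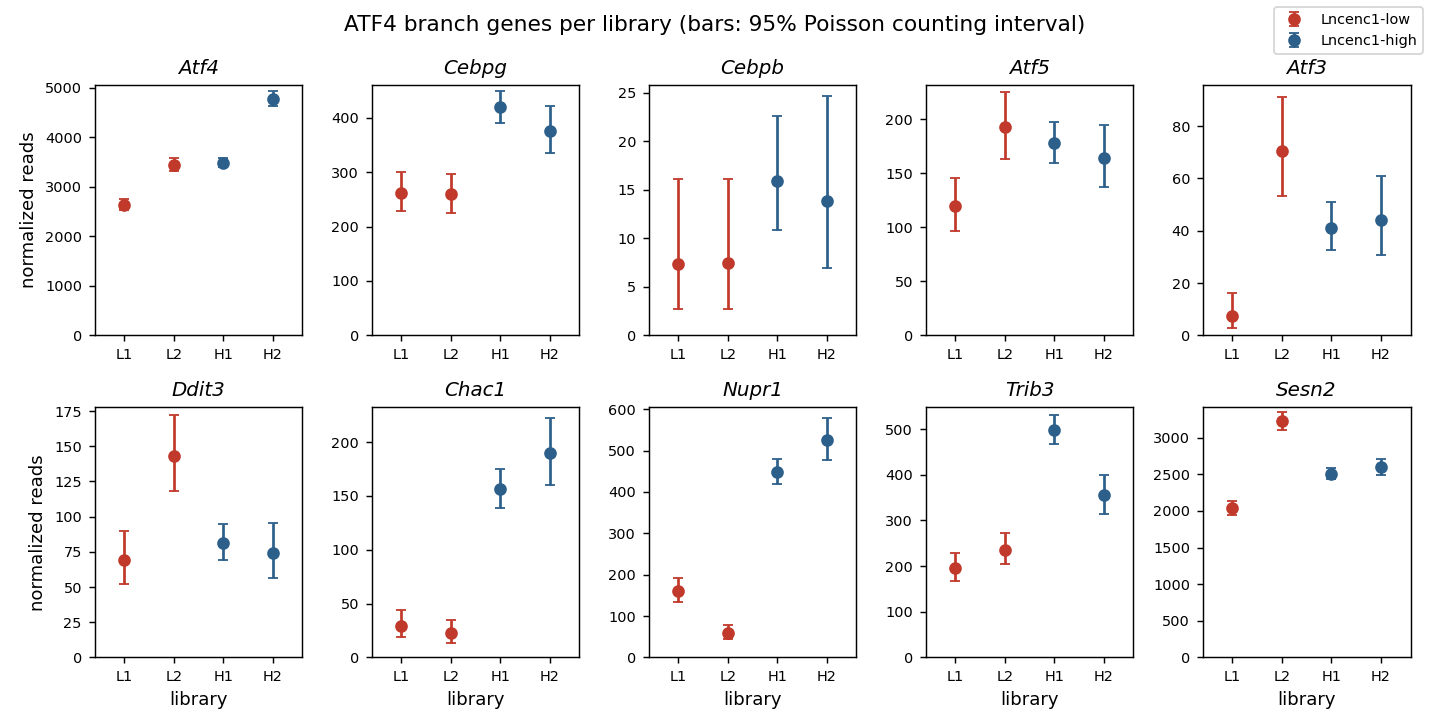
Normalized reads of each gene in the Lncenc1-low libraries L1 and L2 (red) and the Lncenc1-high libraries H1 and H2 (blue), with vertical axes from 0 and bars for the exact Poisson 95% counting interval. Chac1 lies at 29.6 and 22.2 against 156 and 189, while for Atf3, Atf5, Ddit3 and Sesn2 both high libraries lie between L1 and L2.

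Among the transcription factors, Atf4, whose protein drives the branch, had 2630 and 3441 normalized reads in L1 and L2, against 3484 and 4777 in H1 and H2. The groups did not overlap, but L2 and H1 were almost level. The means were 3035 ± 573 in Lncenc1-low and 4131 ± 914 in Lncenc1-high (SD, n = 2 each). A log2 fold change of 0.44 ± 0.23 (SE) and a DESeq2 adjusted p of 0.562 stand in the authors' deposited table for Atf4 (ENSMUSG00000042406.7), with a 95% Wald interval from 0.0020 to 0.89. In the refit without 1 library it ran from 0.20 without H2 to 0.65 without H1 or L2.

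Cebpg, a C/EBP factor that pairs with ATF4, had 262 and 259.5 normalized reads in L1 and L2, against 419 and 376 in H1 and H2. The groups did not overlap, and the low libraries differed by a factor of 1.01. Its log2 fold change was 0.61 ± 0.29 (SE) in the authors' deposited table (ENSMUSG00000056216.8), with an unadjusted p of 0.0348 and a DESeq2 adjusted p of 0.492. Without any 1 library the value stayed between 0.53 and 0.68 in the refit.

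Cebpb, a C/EBP factor of inflammation and differentiation, was close to the limit of measurement. It had 7.39 and 7.42 normalized reads in L1 and L2, against 15.9 and 13.8 in H1 and H2, from 6 and 6 reads against 31 and 11. The groups did not overlap, but the Poisson 95% intervals of all 4 libraries did. The authors' deposited table holds a log2 fold change of 1.01 ± 1.26 (SE) for Cebpb (ENSMUSG00000056501.3), with a 95% Wald interval from -1.46 to 3.48. That interval holds both signs, so the direction of any difference was not resolved at this depth.

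Atf3, a stress-induced factor that can repress or activate, differed more between the low libraries than between the groups. It had 7.39 and 70.4 normalized reads in L1 and L2, from 6 and 57 reads, against 41.1 and 43.9 in H1 and H2. The high libraries were alike, and L1 and L2 lay on either side of them, 9.53-fold apart. Of 1392 tested genes with a mean within a factor of 1.5, 1.87% differed more between the low libraries. For Atf3 (ENSMUSG00000026628.12) the authors' deposited table gives a log2 fold change of 0.13 ± 0.88 (SE). The refit gave -0.73 without L1 and 2.52 without L2, and neither was called.

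Ddit3 codes for CHOP, a factor of cell death under lasting stress and a partner of ATF4 at Chac1 and Trib3. It had 69.0 and 143 normalized reads in L1 and L2, against 81.1 and 74.0 in H1 and H2. L2 stood alone, and the other libraries were alike. Its log2 fold change in the authors' deposited table (ENSMUSG00000025408.14) was -0.45 ± 0.52 (SE), with a 95% Wald interval from -1.47 to 0.56, and the refit gave -0.88 without L1 and 0.17 without L2. The gene overlaps Mars, coding for the methionyl-tRNA synthetase, on the other strand. The kit was strand-specific, but the strand setting of the counting is not stated, so whether reads of the pair were kept apart is not known. Mars was far more abundant, with a deposited mean of 3140 against 91.9. It had 2679 and 2310 normalized reads in L1 and L2, against 4034 and 3539 in H1 and H2. The part of Mars reads in the Ddit3 values was not tested.

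Atf5, a relative of ATF4 that acts in the mitochondrial stress response, had 119.5 and 193 normalized reads in L1 and L2, against 178 and 164 in H1 and H2. L1 was the lowest and L2 the highest library, with both high libraries between them. The value in the authors' deposited table (ENSMUSG00000038539.13) was 0.13 ± 0.40 (SE) on the log2 scale, with a 95% Wald interval from -0.64 to 0.91, and the refit gave -0.17 without L1 and 0.52 without L2. Opposite-strand gene models also overlap Atf5 (Nup62 and Il4i1), Cebpb (Tmem189), Atf3 (Gm24748) and Cebpg (Gm45095). Same-strand models overlap Sesn2 (Gm12981, with a deposited mean of 58.2), Cebpg (Gm44836 and Gm45094) and Ddit3 (a further model of that name).

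The 4 genes whose groups overlapped, Atf3, Atf5, Ddit3 and Sesn2, shared 1 pattern, with L1 below both high libraries and L2 above both. This order held in 11.6% of all tested genes. Nupr1 went the other way within the low group, with L2 below L1, and Cebpg and Cebpb were nearly level between L1 and L2. L2 was also the library with the highest sums of the fibroblast and trophoblast markers. The primitive endoderm sum was instead highest in L1, at 88.7 against 76.6 in L2. In the fibroblast and the trophoblast sum 1 gene each had by far the largest rise from L1 to L2. Even so, Tfap2c was the largest part of the trophoblast sum in every library. Krt8 had 72.7 and 577 normalized reads in L1 and L2, against 99.6 and 213 in H1 and H2, and Pdgfrb had 17.3 and 85.3 against 68.3 and 57.7. Other markers of the same lists went both ways. Tfap2c (809.6 and 669.8), Thy1 (40.7 and 18.5), Eomes, Col3a1 and Hand1 were higher in L1 than in L2. Krt18 (40.7 and 63.0), Col1a1 (1.23 and 11.1) and Col1a2 (6.16 and 18.5) were higher in L2, as was Cdx2. Cdx2, the trophoblast marker with the smallest p, had 2.46 and 19.8 in L1 and L2, against 40.0 and 87.8 in H1 and H2. The part of these markers in the pattern was not tested.

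**Figure D3:**
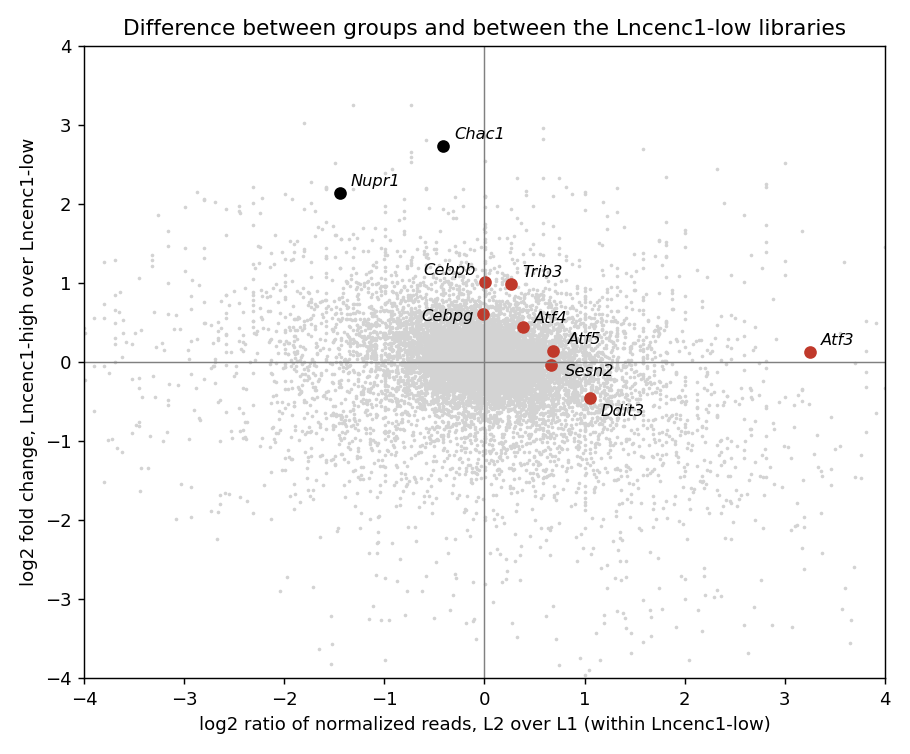
Log2 ratio of normalized reads between the low libraries, L2 over L1 (horizontal), against the deposited log2 fold change, Lncenc1-high over Lncenc1-low (vertical), for tested genes (grey) and the 10 genes of the branch (black where the adjusted p was under 0.05, otherwise red); the axes end at 4 and 82 tested genes lie beyond them. Chac1 stands high at a ratio of -0.41 between L2 and L1, and Atf3 stands far to the right near a fold change of 0.

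**Figure D4:**
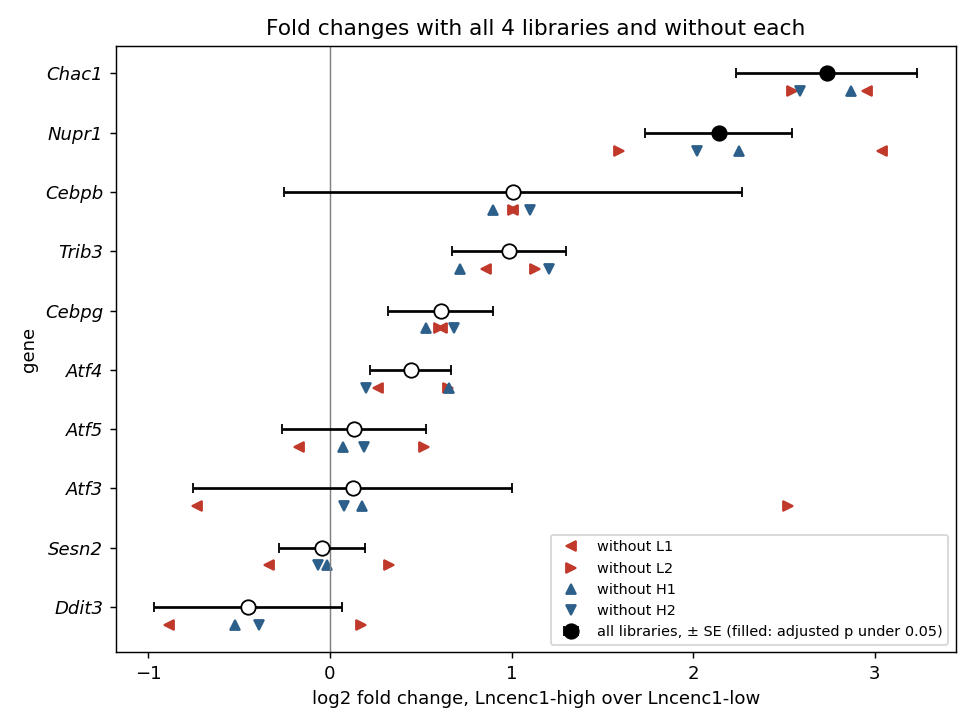
Log2 fold change, Lncenc1-high over Lncenc1-low, from the authors' deposited table with its SE (circles, filled where the adjusted p was under 0.05) and from the refit without each library (triangles). Chac1 ranges from 2.54 to 2.95, while Atf3 moves between -0.73 without L1 and 2.52 without L2.

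Per kilobase of exon, so that genes can be set side by side, Atf4 had the highest level, with a mean over the 4 libraries of 1519 normalized reads per kilobase, followed by Sesn2 at 746. The ranges of Atf4 and Sesn2 over the libraries overlapped neither each other nor those of lower genes. Trib3 came next at 151, Nupr1 at 119, Atf5 at 82.1, Chac1 at 60.7, Cebpg at 58.6 and Ddit3 at 53.6, and within this run each gene's range overlapped that of the next. Atf3 at 18.9 and Cebpb at 7.40 were the lowest, with ranges that overlapped. Chac1 spanned 13.6 to 116 normalized reads per kilobase, so that it ranked among the lowest genes in Lncenc1-low and amid the others in Lncenc1-high.

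The wider pathway was described with 5 lists, 108 tested genes in all, of which 12 were called lower and 1 higher in Lncenc1-low. The list of ATF4 target enzymes, transporters and secreted effectors held most of them, with 9 of 38 tested genes called lower in Lncenc1-low and 1 higher, against 0.505% and 1.02% of all tested genes. Its median log2 fold change was 0.64 in the authors' deposited table. All 5 lists, the synthetases below included, were drawn up with earlier results of these data known. Their shares beside those of all tested genes are therefore descriptions and no independent test. Mthfd2, an enzyme of mitochondrial one-carbon metabolism, had 632 and 564 normalized reads in L1 and L2, against 1419 and 1286 in H1 and H2. The groups were well apart, and its log2 fold change was 1.18 ± 0.22 (SE) in the authors' deposited table (DESeq2 adjusted p = 5.61e-05).

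The other called targets lower in Lncenc1-low were the serine and proline synthesis enzymes Psat1 and Pycr1, the serine-to-glycine enzyme Shmt2, the gluconeogenic enzyme Pck2, the amino acid transporters Slc7a1 and Slc38a2, the glycoprotein Stc2 and the growth factor Vegfa. On the log2 scale the authors' deposited table puts them between 0.74 ± 0.20 (SE) for Slc38a2 and 1.54 ± 0.36 (SE) for Vegfa, with DESeq2 adjusted p from 0.00282 to 0.0284. Of the 10 called targets, Ddit4 included, the refit still called 1 without H1 (Mthfd2), 5 without H2, 9 without L1 (all but Pck2) and 2 without L2 (Mthfd2 and Pck2). Ddit4, an inhibitor of mTORC1, was the 1 called gene higher in Lncenc1-low. It had 500 and 1123 normalized reads in L1 and L2, against 292 and 411 in H1 and H2. Both low libraries lay above both high ones, and L2 was again the highest. The authors' deposited table gives Ddit4 a log2 fold change of -1.21 ± 0.35 (SE, DESeq2 adjusted p = 0.0401). It rested on L2, without which the refit gave -0.51 (adjusted p = 0.9999), and it was also not called without H1 (adjusted p = 0.638), without H2 (0.0818), with no filter on the mean (0.0566) or by limma voom (0.400).

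Aminoacyl-tRNA synthetases, which charge tRNAs and are ATF4 targets, were called lower in Lncenc1-low in 3 of 12, against 0.505% of all tested genes. Positive fold changes were found in 11 of 12, against 49.4% of all tested genes, and the median was 0.51. Nars was the clearest, with 3613 and 3619 normalized reads in L1 and L2, against 6516 and 6383 in H1 and H2. The libraries of each group were almost equal, and its log2 fold change was 0.83 ± 0.18 (SE) in the authors' deposited table (DESeq2 adjusted p = 0.000833). Sars and Iars followed at 0.74 ± 0.19 (SE) and 0.62 ± 0.18 (SE), and Mars, at 0.60 ± 0.20 (SE), did not pass, all from the authors' deposited table. Iars lost its call in the refit without any 1 library (adjusted p from 0.216 to 0.403), with library totals (0.0575) and with no filter on the mean (0.0591). Sars lost it without H1 (0.257), H2 (0.146) and L2 (0.570). The motif of the promoters shown above was found for 5 of the 8 synthetase genes with a window, 9 of the 34 ATF4 targets with one and 4.50% of all genes with one. Of the called genes of the lists lower in Lncenc1-low, 3 of the 11 with a window held it (Pycr1, Pck2 and Iars), and Mthfd2, Psat1, Shmt2, Slc7a1, Slc38a2, Stc2, Vegfa and Sars did not. Over all called genes lower in Lncenc1-low it was found in 5 of 58 with a window, or 8.62%. These were Chac1, Nupr1, Pycr1, Pck2 and Iars, so no such gene with a window outside the branch and the lists held it. The rest of the 71 called genes lower in Lncenc1-low, Nars among them, had no window and were not searched.

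The remaining lists held no call. Among all tested genes the authors' Wald test had 1.53% called, and limma voom had 0.0428%. An unadjusted p under 0.05 was reached in the Wald test by 3.54% (lower in Lncenc1-low) and 5.28% (higher there). In limma voom 10.1% reached it in either direction. With so few calls among all genes, lists of 18 to 21 genes can easily hold none. The absence of calls therefore does not show that these genes were unchanged. Of 19 tested kinases, phosphatases and subunits around eIF2, neither DESeq2 in the authors' deposited table nor limma voom called any. In each test 1 of them had an unadjusted p under 0.05, and in that table it was Ppp1r15b, a regulatory subunit of the eIF2 alpha phosphatase, at 0.46 ± 0.19 (SE). Eif2s3x, Eif2s1 and Eif2b5 came next by Wald statistic, at 0.41, -0.25 and 0.25 in that table, and the list median was -0.081. Of 21 partners and paralogs of the 10 genes neither test called any. An unadjusted p under 0.05 was reached by 1 in limma voom and by 2 in the authors' deposited table, Jdp2, a bZIP repressor, at 1.61 ± 0.51 (SE) and Jun at -1.50 ± 0.63 (SE). Sesn3 and Cebpa followed at -0.53 and -1.73 in the authors' deposited table. Chac2, the paralog of Chac1, had 22.2 and 42.0 normalized reads in L1 and L2, against 62.1 and 62.7 in H1 and H2, and a log2 fold change of 0.96 ± 0.66 (SE) that did not pass in the authors' deposited table; it was picked as a paralog after its values were seen. Of 18 genes of the ATF6 and XBP1 arms, the chaperone branches of the unfolded protein response, neither test called any, and each had 1 at an unadjusted p under 0.05, in the deposited case the chaperone Canx at 0.36 ± 0.17 (SE) in the authors' deposited table, and a median of 0.038. Dnajb11, Creld2 and Hyou1 lay at -0.21, -0.20 and 0.16 there.

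**Figure D5:**
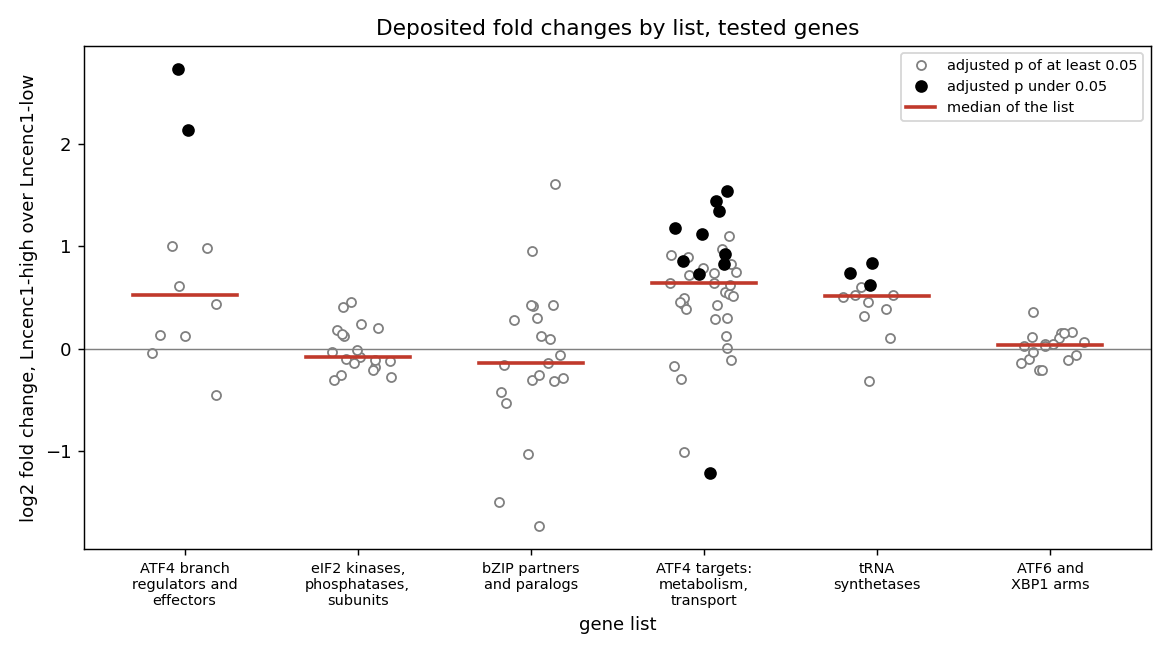
Deposited log2 fold change, Lncenc1-high over Lncenc1-low, of each tested gene in the 10 genes of the branch and the 5 other lists, with a red line at the median and filled points for an adjusted p under 0.05. The medians are 0.53 for the 10 genes, 0.64 for ATF4 targets and 0.51 for synthetases, against -0.081, -0.14 and 0.038 for the eIF2, partner and ATF6-XBP1 lists.

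Likeness of pattern was measured as the distance between centred log2 values over the 4 libraries, among the 10999 tested genes whose mean reached 50. The genes most like Chac1 were Vrtn (0.64), Hdac7 (0.65) and Igfbp4 (0.71). Those most like Nupr1 were Mark1 (0.42), A730049H05Rik (0.45) and Glyctk (0.46), each with L2 below L1 and both below the high libraries. Likeness over 4 libraries is a description of these libraries.

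The calls depended on the test. Limma voom on the recovered counts called 0 of the 10 genes and 0 of the 108 others, with 0.0428% of all tested genes called, and it gave Chac1 and Nupr1 adjusted p of 0.147 each. At an unadjusted p under 0.05 limma voom had 4 of the 10 genes and 36 of the 108 others, against 10.1% of all tested genes. Without L2 the refit called 1 of the 10 genes, Chac1, beside 0.343% of tested genes, and without H1, H2 and L1 it called Chac1 and Nupr1, beside 0.394%, 0.549% and 1.39%. Chac1 and Nupr1 were also the called ones with library totals in place of size factors (1.6% of tested genes called). They were called in the refit of all libraries too (1.45%), which repeats the deposited test by construction and is no separate check. The same 2 were called with no filter on the mean (0.897%) and with a mean of at least 50 (1.77%). Those 2 settings only adjust the deposited p-values anew. Atf3 and Cebpb were not tested with a mean of at least 50.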

How the data were processed

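Total RNA of 4 libraries was sequenced after ribosomal RNA depletion with a strand-specific kit, according to the labels' protocols. TopHat2, HTSeq, DESeq2 1.8.2 and mm9 are named, without settings, in the submitters' processing notes. Per the file headers, the deposited table gives the mean normalized read count over all libraries (a signal), a log2 fold change with its standard error, a Wald score, and p-values and adjusted p-values. The authors computed all of these, and the adjusted p covers 14070 of 19840 genes. Symbols were matched by Ensembl identifier for 19707 genes.

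No column holds 1 library. Each deposited mean is a sum of 4 whole read counts times 4 fixed steps, read from recurring low means. For low means, every whole-number solution that matched 15 significant digits was kept. For higher means, only counts near those implied by the deposited fold change and its error were searched, and the highest means were not searched. The deposited fold change chose among several solutions. This gave counts for 19805 genes (99.8%) in Python 3.11.15. The other 35 hold 15.0% of the summed means. The deposited fold change came out within 0.00001 for 13892 of the 14030 tested genes that had reads on both sides. Because that fold change helped to choose the counts, this match is no independent check of them. The size factors were 0.811 (L1), 0.809 (L2), 1.95 (H1) and 0.797 (H2), so 3 reads are 3.70, 3.71, 1.54 and 3.76 normalized reads.

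The authors' DESeq2 Wald test is the main result. The recovered counts served the values per library and the alternatives: a negative binomial refit at the dispersions that the deposited errors imply, with all or all but 1 library or with library totals, and limma 3.58.1 voom. Library totals were sums of the recovered reads and left out the genes without recovered counts. Fits without 1 library keep the dispersions of all 4, so a lone library is taken to be as variable as the rest. These steps were tested on simulated data. The 10 genes, the lists and the naming rules were chosen with earlier results of these data known. Named are all 10 genes, called genes of the lists, the 4 largest Wald statistics per list, and the 3 nearest patterns of each called gene of the 10, with a pseudocount of 1. Exon lengths are GENCODE M21 unions, of another build than the authors'.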

Additional observations from a re-analysis of the deposited data

How the results depend on the processing

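No paired analysis was possible because the deposited table carries no replicate numbers, so a replicate block could not be fitted. Of the 10 genes, 2 were called with all libraries, 1 to 2 with 1 library left out, 0 by limma voom, and 2 with library totals, with no filter, with a mean of at least 50 and in the added refit of all libraries. Of the 108 others, 13 were called with all libraries, 2 to 12 with 1 left out (2 without H1, 6 without H2, 12 without L1, 4 without L2), 0 by limma voom, and 11 to 13 under the remaining settings. Mthfd2 and Nars were called without any 1 library. With 1 library left out, the log2 fold changes of 4 genes that were never called changed sign, over -0.73 to 2.52 for Atf3 and -0.17 to 0.52 for Atf5 (negative without L1), and over -0.88 to 0.17 for Ddit3 and -0.34 to 0.32 for Sesn2 (positive without L2). Chac1 had adjusted p from 2.39e-05 to 0.147 over the alternatives and Nupr1 from 5.40e-06 to 0.16. The refit of all libraries is built from the deposited fold changes and errors, so it repeats the deposited test. The settings with no filter and with a mean of at least 50 only adjust the deposited p-values anew. The refit without 1 library keeps the dispersions of all 4, and fewer libraries widen its errors. Limma voom estimates its own variances, and the cause of its lower count was not tested. With 2 libraries per group, and 6 reads of Cebpb in each low library, small differences were not detectable.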

Other observations

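The sestrin and AP-1 relatives of the 10 genes, picked after their values were seen, included genes with L2 above every other library. Sesn1, a p53-induced sestrin, had 336 and 764 normalized reads in L1 and L2, against 485 and 516 in H1 and H2. Sesn3 had 327 and 582 normalized reads in L1 and L2, against 301 and 330 in H1 and H2. Jund had 239 and 978 normalized reads in L1 and L2, against 370 and 228 in H1 and H2, the widest gap between the low libraries of these. None of the 3 passed in the authors' deposited table, where their log2 fold changes were -0.14 ± 0.34 (SE) for Sesn1, -0.53 ± 0.33 (SE) for Sesn3 and -1.02 ± 0.97 (SE) for Jund.

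Amino acid genes of the target list, also picked after their values were seen, stood apart in 1 low library. Slc7a3, a cationic amino acid transporter, had 2516 and 943 normalized reads in L1 and L2, against 2631 and 3175 in H1 and H2. Slc7a5, the large neutral amino acid transporter, had 2283 and 1013 normalized reads in L1 and L2, against 2371 and 2269 in H1 and H2. In both genes L1 lay close to the high libraries and L2 stood apart. Neither passed in the authors' deposited table, at log2 fold changes of 0.75 ± 0.68 (SE) and 0.49 ± 0.30 (SE). Cth, an enzyme of cysteine synthesis, was lowest in L1, with 331 and 849 normalized reads in L1 and L2, against 1060 and 1144 in H1 and H2, and did not pass either.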
